A study of Homo sapiens with 4 samples.

Results

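E-cadherin-high CD133-low cells of the PC14 line, which comes from a human lung cancer of non-small-cell type, were set apart by 142 of 14083 measured genes. Of these genes, 38 had a signal at least 2-fold above that of each of the other 3 sorted subpopulations, and 104 had a signal at least 2-fold below each of them. ELF3, an epithelial transcription factor, and TNFSF10, a death ligand, stood furthest above, and the growth factor HBEGF ranked 7 among the higher genes. The genes far below were led by the intermediate filament gene VIM, but of 81 further probe sets of the lower genes only 39 went the same way, so part of that group rests on the choice of probe set. Because the signals themselves chose the genes, their values are given as a description, and with 1 array per subpopulation no difference has a replicate check and none was tested.

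The study sorted PC14 cells by flow cytometry, first by E-cadherin at the surface and then by CD133. For the second sort all cells carried a lentiviral construct with green fluorescent protein under the CD133 P1 promoter, so CD133-high and CD133-low refer to the reporter and not to the protein. The groups are E-cadherin-high CD133-low (PC14 E+CD133-), E-cadherin-high CD133-high (PC14 E+CD133+), E-cadherin-low CD133-low (PC14 E-CD133-) and E-cadherin-low CD133-high (PC14 E-CD133+). They share 1 cell line, no drug treatment is named in the labels used here, and each group was hybridised to 1 Affymetrix array. The submitters describe the first group as epithelial in type and not stem-like. Wherever 4 signals are listed, the first is that of E-cadherin-high CD133-low cells, followed by E-cadherin-high CD133-high, E-cadherin-low CD133-low and E-cadherin-low CD133-high cells.

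E-cadherin, the product of CDH1, joins epithelial cells at adherens junctions. In the epithelial to mesenchymal transition, repressors such as ZEB1 bind E-boxes in the promoters of CDH1 and other epithelial genes, and cells come to build their cytoskeleton from vimentin. CD133, the product of PROM1, is a membrane glycoprotein often used to enrich stem-like cells of lung tumours.

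A signal is the deposited intensity of a probe set, a group of short probes for 1 transcript, on a linear scale. Signals under the median of an array's probe sets, its floor, were raised to it before any ratio was taken. The floors were 57.4, 53.7, 57.0 and 60.3. A fold against an array at the floor is a lower bound and is written "at least". It applied to 10 of the 38 higher genes and to 18 of the 104 lower genes. The fold given for a gene is the one against its nearest other array, so the folds against the other arrays are larger.

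The promoters of 3 leading higher genes and of VIM are shown first, as the regions that epithelial and mesenchymal regulators would act on. Each is the 250 bases before the RefSeq transcription start, 5′ to 3′ on the gene's strand, in GRCh38.p14. Matches of 4 short motifs, searched on both strands, are in capitals: the E-box CAGGTG bound by ZEB1 and related repressors, the AP-1 site TGANTCA, the GC box GGGCGG and the TATA box TATAAA. Positions count back from the transcription start to a motif's first base. ELF3 (chr1:202010337-202010586, plus strand) held 1 E-box at -120 and 1 TATA box at -34. TNFSF10 (chr3:172523431-172523680, minus strand) held 1 TATA box at -31. HBEGF (chr5:140346604-140346853, minus strand) held 1 E-box at -248 and 5 GC boxes, of which the last 2 overlap. VIM (chr10:17227991-17228240, plus strand) held 1 GC box at -46.
ELF3: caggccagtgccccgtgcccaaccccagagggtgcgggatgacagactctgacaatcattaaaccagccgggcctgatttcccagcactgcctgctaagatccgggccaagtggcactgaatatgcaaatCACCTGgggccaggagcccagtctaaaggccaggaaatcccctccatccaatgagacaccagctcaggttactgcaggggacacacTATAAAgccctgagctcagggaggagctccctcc
TNFSF10: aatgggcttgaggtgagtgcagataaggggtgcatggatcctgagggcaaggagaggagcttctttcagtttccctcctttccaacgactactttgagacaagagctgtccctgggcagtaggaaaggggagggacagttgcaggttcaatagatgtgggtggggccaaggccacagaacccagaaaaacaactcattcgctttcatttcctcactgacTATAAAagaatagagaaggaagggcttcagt
HBEGF: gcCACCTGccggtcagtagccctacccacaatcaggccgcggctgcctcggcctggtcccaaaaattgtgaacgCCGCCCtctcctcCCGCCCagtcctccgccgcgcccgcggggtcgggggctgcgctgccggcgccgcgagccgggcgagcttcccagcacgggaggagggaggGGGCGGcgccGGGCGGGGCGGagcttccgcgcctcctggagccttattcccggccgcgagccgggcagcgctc
VIM: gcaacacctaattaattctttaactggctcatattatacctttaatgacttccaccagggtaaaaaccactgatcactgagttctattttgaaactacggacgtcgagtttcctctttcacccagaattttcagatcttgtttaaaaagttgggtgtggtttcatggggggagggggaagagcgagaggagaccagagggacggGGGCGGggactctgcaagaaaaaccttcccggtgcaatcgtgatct

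RefSeq gave a promoter for 30 of the 38 higher genes, 89 of the 104 lower genes and 11331 of the 14083 measured genes. The E-box was present in 30% of the higher genes' promoters (9 of them), in 14.6% of the lower genes' (13) and in 16.1% of all measured genes'. The 9 included ELF3, HBEGF, DSP, PLEK2, MMP15 and MYCL. AP-1 sites were found in 6.67% of the higher, 7.87% of the lower and 3.88% of all measured genes' promoters. GC boxes were found in 70%, 59.6% and 64.5%, and TATA boxes in 16.7%, 7.87% and 6.11%. Over all 27305 promoters of that length in the table the 4 shares were 17.5%, 6.6%, 42.3% and 11.1%. Median GC content was 66.8% for the higher genes, 60% for the lower genes and 64.8% for measured genes. These shares describe letters in a fixed window and were not tested.

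The CDH1 signal followed the sort, at 3546, 5548, 528 and 347. Both E-cadherin-high arrays lay above both E-cadherin-low arrays, and E-cadherin-high CD133-low cells did not have the highest CDH1. PROM1 lay below the floor on all 4 arrays, so the CD133 sort cannot be checked from it. Other epithelial genes were high as well, with EPCAM at 10717, 12326, 3760.4 and 6554 and KRT18 at 15306, 10295, 10434 and 7605. KRT19 and ESRP1, which many epithelial cells express, lay below the floor on every array. Of 8 defining markers of other cell types, 7 had a named probe set. Their summed signal was 25300, 33600, 18500 and 24800, most of it from COL3A1, and none of the 7 was at the floor in E-cadherin-high CD133-low cells. PTPRC, a leukocyte marker, was lowest in these cells, at 346, 1246, 505 and 1102. The fibroblast markers LUM (228, 626, 131 and 1390.1) and DCN (76.1, 171, 52.9 and 358) were at least 2-fold under both CD133-high arrays and over E-cadherin-low CD133-low cells. The longer list of 11 measured markers of other cell types had a median log2 difference to the mean of the other arrays of -0.49, the lowest of 36 lists, and none of its genes met the rule. Their part in the results was not tested. The ratio of 3′ to 5′ actin signal ran from 1.53 to 1.78 and that of GAPDH from 0.898 to 1.02, with E-cadherin-high CD133-low cells at 1.57 and 0.898.

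The 38 higher genes were 0.27% of the genes measured, the 104 lower genes 0.738%, and the 142 together 1.01%. The same rule set apart 144 genes (1.02%) in E-cadherin-high CD133-high cells, 228 (1.62%) in E-cadherin-low CD133-low cells and 329 (2.34%) in E-cadherin-low CD133-high cells. Higher genes numbered 72 (0.511%), 67 (0.476%) and 244 (1.73%) in these 3, and lower genes 72 (0.511%), 161 (1.14%) and 85 (0.604%). Thus E-cadherin-high CD133-low cells had the lowest count of higher genes, and their lower genes outnumbered their higher genes. Their total of 142 was close to the 144 of E-cadherin-high CD133-high cells. The other arrays were not recounted under other settings.

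**Figure D1:**
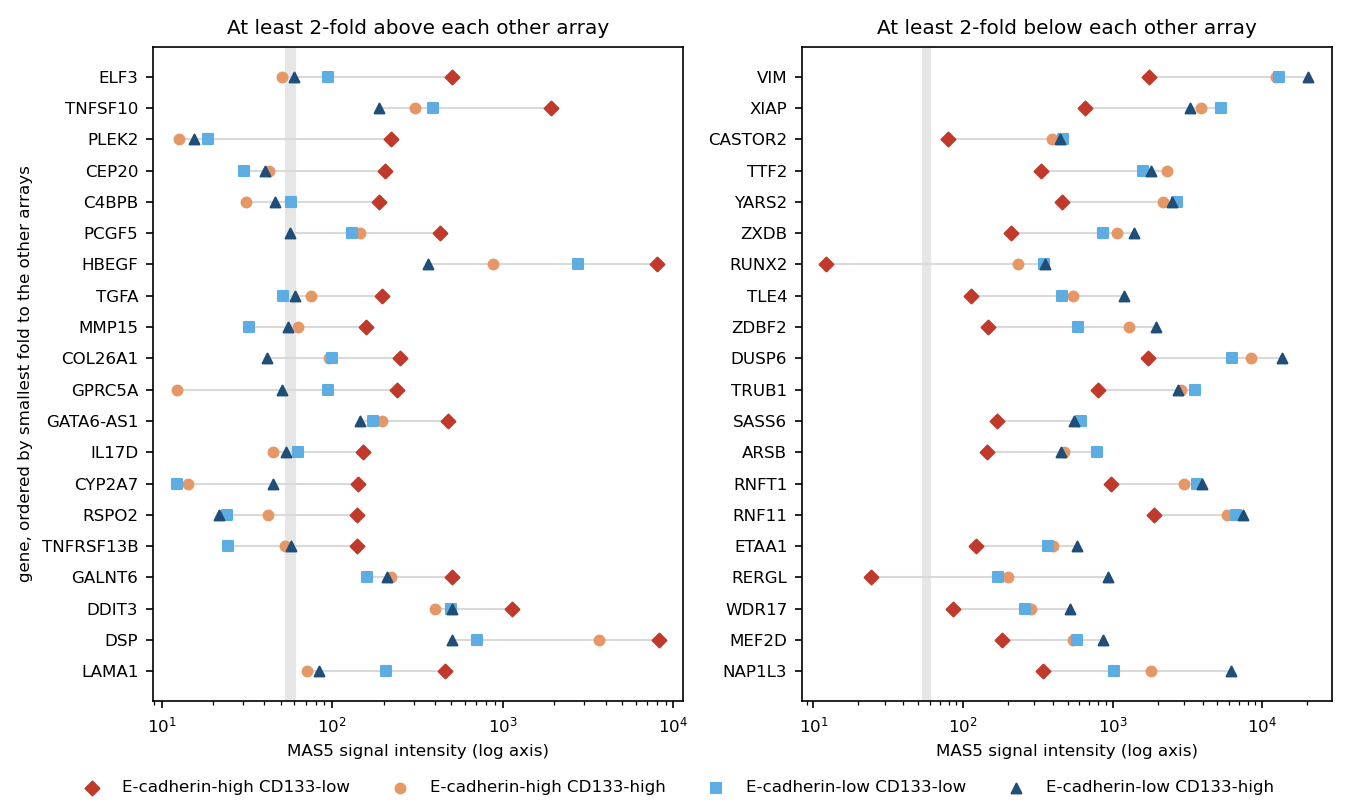
MAS5 signal intensity on a log axis of the 20 genes furthest above (left) and the 20 furthest below (right) the other arrays, ordered by the fold to the nearest array; each symbol is 1 array and the grey band spans the floors of the 4 arrays. The red diamond of E-cadherin-high CD133-low cells lies outside the other 3 symbols in every line, as the rule requires, by 5.37-fold for ELF3 and 7.15-fold for VIM.

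Among epithelial genes, ELF3 stood furthest apart. ELF3, an ETS-family transcription factor of epithelia, had signals of 506, 50.6, 94.3 and 59.4. Only E-cadherin-high CD133-low cells had a clear signal, 5.37-fold above the nearest array, and both CD133-high arrays lay under their floors, that of E-cadherin-high CD133-high cells, sorted for the same E-cadherin, included. As in every bulk sample, fewer cells that express a gene and less RNA per cell cannot be told apart. A further ELF3 probe set gave 243, 27, 61.7 and 73.5, with the same array on top.

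DSP, which encodes desmoplakin, the link between desmosomes and intermediate filaments, gave 8212, 3656, 705 and 505. Both E-cadherin-high arrays stood above both E-cadherin-low arrays, and the CD133-low one was 2.25-fold above the CD133-high one. EXPH5, a Rab27 effector in vesicle traffic of keratinocytes, was at 520.4, 216, 242 and 108. GPRC5A, a retinoic acid-induced receptor of lung epithelium, reached 239, 12.3, 95 and 50.5. Its level in E-cadherin-high CD133-high cells was under the floor, and a further probe set gave 299, 4.31, 73.2 and 40.7. Neither gene was in a list of epithelial genes.

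The list of epithelial junction and adhesion genes had 36 measured members, of which 2 (DSP and ELF3) met the rule upward and none downward. Its median log2 difference was -0.14 against E-cadherin-high CD133-high cells, 0.57 against E-cadherin-low CD133-low cells and 0.30 against E-cadherin-low CD133-high cells, where all measured genes had medians of 0.05, 0.01 and -0.05. At least 2-fold above E-cadherin-low CD133-low cells were 13 of the 36, above E-cadherin-low CD133-high cells 10, and above E-cadherin-high CD133-high cells 2. Over all measured genes the shares in the same order were 2.87%, 4.42% and 3.24%. MAL2, an apical transport protein, was at 8772, 10869.5, 664 and 283, and the desmosomal cadherin DSG2 at 4872, 5303, 690.0 and 1459. In both genes E-cadherin-high CD133-high cells had the higher signal of the pair.

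HBEGF, a membrane-anchored ligand of EGFR and ERBB4 that is shed as a soluble factor, had signals of 8016, 872, 2754 and 366. It was high on both CD133-low arrays and 2.91-fold higher in the E-cadherin-high one. A further HBEGF probe set gave 3054, 269, 1565 and 207, the same order. TGFA, another EGFR ligand, gave 195, 74.6, 51.5 and 60.6, 2.61-fold above the nearest array, with the other 3 arrays close to the floor. The other named TGFA probe sets lay below the floor on all arrays.

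EGFR, a receptor of both ligands, had signals of 709, 851, 535 and 2118, and ERBB4, the other receptor of HBEGF, 323, 329, 150.2 and 461. Both were highest in E-cadherin-low CD133-high cells. ERBB2, which binds no ligand of its own and pairs with the other receptors, was highest in E-cadherin-high CD133-low cells at 1352, 848, 857 and 979, by less than 2-fold. ERBB3, a receptor of neuregulins, had 1791, 2213, 623 and 2385. The ligand EREG was above the floor in E-cadherin-low CD133-high cells alone, at 115. LRIG3, of a family that includes the EGFR inhibitor LRIG1, was at 214, 1401, 400.2 and 439, and LRIG1 itself at 48.2, 229, 110.1 and 143. Both were lowest in E-cadherin-high CD133-low cells but within 2-fold of E-cadherin-low CD133-low cells after flooring. Of the 13 measured genes of this list, 2 met the rule upward and none downward.

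TNFSF10 encodes TRAIL, a ligand that triggers apoptosis through death receptors. Its signals were 1913, 307, 390.3 and 188, 4.9-fold above the nearest array. The other 2 probe sets of the gene gave 1270.0, 217, 380.3 and 168 and 1542, 239.5, 450.0 and 159, so all of its probe sets met the rule. Its receptors TNFRSF10A (2201, 1907, 1645 and 2645) and TNFRSF10B (2727, 2370.4, 2702 and 4744) were present on every array and were not highest in E-cadherin-high CD133-low cells. CASP8, the initiator caspase of this pathway, was at 575, 1479, 888 and 547. Of the 13 measured genes of the death receptor list, TNFSF10 alone met the rule.

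DDIT3, the stress-induced transcription factor CHOP, had signals of 1134, 402, 497 and 501. The other 3 arrays lay close together and E-cadherin-high CD133-low cells were 2.26-fold above them. The list of amino acid and unfolded protein response genes had 35 measured members, with DDIT3 alone meeting the rule. Its median log2 difference to the mean of the other arrays was 0.24, against -0.01 for all measured genes. ATF4, which activates DDIT3, was at 21779.8, 11355, 18183 and 14044, and its target CHAC1 at 314, 140.3, 221 and 245. Both had their highest signal in E-cadherin-high CD133-low cells without reaching 2-fold over every array. Lists of housekeeping and ribosomal protein genes also had medians above 0, at 0.20 and 0.36. With quantile normalization these 2 medians were 0.03 and 0.04, and that of the amino acid and unfolded protein response list was 0.16.

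Of the genes for matrix, surface or secreted proteins, LAMA1, the laminin alpha 1 chain of basement membranes, was at 461, 70.7, 208 and 83.9. Both CD133-low arrays were above both CD133-high arrays. MMP15, a membrane-type matrix metalloproteinase, gave 158, 62.6, 32.3 and 55, with only E-cadherin-high CD133-low cells well above the floor. The collagen gene COL26A1 was at 251, 95.1, 99.5 and 41.4. FSTL3, a secreted binder of activin, lay near the threshold at 614, 305, 302 and 248. RSPO2, a secreted enhancer of Wnt signalling, had 141, 42.2, 24.3 and 21.7, all other arrays being under the floor, so that its fold is at least 2.33. The cytokine IL17D was at 152, 44.8, 62.7 and 53.9, the complement regulator C4BPB at 188, 31, 57.1 and 46.3 and the endothelin receptor EDNRB at 124, 8.26, 55.6 and 52.8. All 4 of these had signals under 200 in E-cadherin-high CD133-low cells, as did 14 of the 38 higher genes.

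Of the enzymes, PAPSS2, which makes the sulfate donor PAPS, was at 5896, 1880.0, 2771 and 2546, among the 7 of 38 higher genes with a signal of at least 1000. Its other 2 probe sets went the same way, the brighter at 2081, 749, 1217 and 1248. HS3ST1, which uses PAPS to sulfate heparan sulfate, gave 149, 67.7, 39.2 and 33.8. GALNT6, an initiator of mucin-type O-glycosylation, gave 505, 221, 161 and 209.5. OGDH, a subunit of the 2-oxoglutarate dehydrogenase complex, gave 243, 105, 95.6 and 115. On these GALNT6 and OGDH probe sets the other 3 arrays were within 2-fold of each other, as in 30 of the 38 higher genes. In 9 of the 38 all 3 other arrays were at the floor, so that flooring set their closeness. A further GALNT6 probe set gave 237, 215, 105 and 140. Further OGDH probe sets gave 114, 84.6, 87.2 and 78.9, and 77.7, 47.3, 30.5 and 160, the latter highest in E-cadherin-low CD133-high cells.

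The polycomb subunit PCGF5 gave 426, 145, 131 and 56.5, although another of its probe sets gave 209, 151, 187 and 56.3. NFE2L3, a bZIP factor related to NRF2, was at 1617, 725, 761 and 651. MYCL, a MYC family member known from small-cell lung cancer, was at 374, 108, 176 and 134. PLEK2, a pleckstrin-family protein at the actin cytoskeleton, was detected in E-cadherin-high CD133-low cells alone, at 222, 12.6, 18.7 and 15.4. CEP20, a centrosomal protein, had the same form, at 203, 42.4, 30.5 and 40.4. Their folds are at least 3.68 and 3.37, and another CEP20 probe set lay below the floor throughout.

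Among further higher genes, RMC1, a regulator of late endosome traffic, was at 3411, 1199, 1605 and 871, and the ubiquitin ligase PELI3 at 419, 201, 159 and 140.5. The RNAs annotated as antisense, GATA6-AS1 (479.8, 196, 174 and 145) and NINJ2-AS1 (534, 93, 246 and 108), were also in the group. CYP2A7, TNFRSF13B and CACNB1 had signals of 127 to 141 against other arrays under the floor. A further CACNB1 probe set gave 23.9, 13.5, 56.9 and 80.4, above the floor in E-cadherin-low CD133-high cells alone. CYP2A7 has close paralogs that its probes may share. The last 8 of the 38 by fold included NGEF, TMPRSS5, SPTB and TRG-AS1, with signals of 122 to 218 in E-cadherin-high CD133-low cells.

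VIM stood furthest below. It encodes vimentin, the intermediate filament of mesenchymal cells, and had signals of 1740.2, 12448, 12938 and 20200.2. All 4 arrays were far above the floor, and E-cadherin-high CD133-low cells were 7.15-fold under the nearest array, which was E-cadherin-high CD133-high. The E-cadherin-high CD133-high and E-cadherin-low CD133-low signals differed little. The probe set is marked as shared in the array's naming, and a dimmer VIM probe set gave 5.67, 29.6, 36 and 135, lowest in the same cells but above the floor on 1 array only. In the list of filament genes, which had 8 measured members, VIM alone met the rule. KRT8, a keratin of simple epithelia, was at 1493, 1334, 406 and 1081.

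Among other mesenchymal genes, ZEB1, the repressor of CDH1, gave 64.8, 168, 1056 and 1301. E-cadherin-high CD133-low cells lay just above the floor, 2.59-fold under E-cadherin-high CD133-high cells, and both E-cadherin-low arrays were far higher. Further ZEB1 probe sets gave 23.3, 25.9, 144 and 197 and 52.6, 61.1, 145 and 229, in which the E-cadherin-high arrays hardly differed. POSTN, the matrix protein periostin, had the same form at 73, 158, 970.4 and 1219.8. AXL, a receptor tyrosine kinase of mesenchymal tumour cells, was at 54, 271, 151 and 1518, under the floor in E-cadherin-high CD133-low cells and highest in E-cadherin-low CD133-high cells. EMP1, a tetraspan membrane protein, gave 179, 503, 1731 and 3872, and a further probe set gave 10.4, 136, 459.9 and 901.

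AKAP12, a scaffold for protein kinases A and C, had the same order of arrays as ZEB1 (339.8, 835, 2980.2 and 7427), and a further probe set gave 169, 530.0, 1297 and 4324. AKAP12 was chosen after the values were seen. The microfibril gene FBN2 (64.1, 938, 147 and 1808) and DPYSL2, a microtubule-binding protein of growing axons (324, 4660.4, 764 and 5168), took another form. Both were low on the CD133-low arrays and high on the CD133-high arrays, with E-cadherin-high CD133-low cells lowest.

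Of 26 measured genes in the mesenchymal list, 3 (VIM, POSTN and AXL) met the rule downward and none upward. The list's median log2 difference to the mean of the other arrays was -0.07. It was -0.19 against E-cadherin-high CD133-high, 0.01 against E-cadherin-low CD133-low and -0.17 against E-cadherin-low CD133-high cells. CAV1 (5681, 5641, 1248 and 2771) and COL3A1 (22769, 29221, 15938 and 19767) were not low in E-cadherin-high CD133-low cells. Of 7 measured transcription factors of the transition, ZEB1 alone met the rule. TWIST1 was bright on every array, at 20662, 17844, 11888 and 19618, and SNAI1 was highest in E-cadherin-high CD133-low cells, at 119, 68.6, 55.2 and 26.3. Of 43 measured matrix genes, LAMA1 met the rule upward and FBN2 and POSTN downward.

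DUSP6, the phosphatase that inactivates ERK and is itself induced by it, gave 1726, 8371, 6328 and 13578. E-cadherin-high CD133-low cells were 3.67-fold under the nearest array, and E-cadherin-low CD133-high cells were highest. Its other probe sets gave 1273, 3178, 2463 and 4763 and 3098, 5332, 4007 and 9808, lowest in the same cells by less than 2-fold. Of 42 measured genes of the ERK feedback and immediate early list, DUSP6 alone met the rule. SPRY2, another feedback inhibitor, was flat at 5218, 5399, 5937 and 5655. ETV5, an ERK-induced transcription factor, was at 1183, 1799, 1124 and 2362. EGR1, an immediate early factor, was at 5504, 1824, 1902 and 6515, so that it was high where DUSP6 was low and also where DUSP6 was highest.

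Among lower genes that regulate transcription, RUNX2, the master factor of osteoblasts, was under the floor in E-cadherin-high CD133-low cells alone, at 12.1, 234, 348 and 354, a fold of at least 4.07. A further RUNX2 probe set gave 40.6, 74.9, 107 and 176, and 4 others lay above the floor on at most 1 array. Of these 4, 1 was above it in E-cadherin-high CD133-low cells alone, at 60.7, 3.93, 7.46 and 5.61. Another was above it in E-cadherin-low CD133-high cells alone, at 12.5, 15.7, 31.8 and 92.9. TLE4, a Groucho-type corepressor, gave 113, 541, 458 and 1193, and a dimmer probe set gave 5.94, 65, 62.7 and 171. MEF2D, a MADS-box factor, was at 182, 543, 579 and 859, but a further probe set gave 157, 180.1, 177 and 281. The zinc finger gene ZXDB (209.6, 1075, 856 and 1379.6) has a near-identical paralog, so its signal may be shared. EID1, an inhibitor of histone acetylation by p300, was at 1967, 5519, 6082 and 5618. Its other probe sets disagreed with each other, at 1298, 4338, 4749 and 4816 and at 3519, 3112, 2927 and 2297.

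XIAP, an inhibitor of caspases, had the second-largest step at 656, 3918, 5307 and 3316. This rests on 1 of 7 probe sets above the floor, since the others included 1485, 1441, 2309.9 and 1623, and 489, 883, 1317 and 843. Of those 6, 1 was lowest in E-cadherin-high CD133-low cells and 5 were not. PTP4A1, a membrane phosphatase, gave 4068, 11019, 12872 and 14407 on its brightest probe set by mean log2 signal. The other 3 PTP4A1 probe sets above the floor were highest, not lowest, in E-cadherin-high CD133-low cells, such as 11798, 6067, 7977 and 4610.0. RASSF9 (179, 1474, 464 and 1142) and ARSB, a lysosomal sulfatase (144, 471, 785 and 450.1), were likewise not lowest on their further probe set above the floor.

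Several lower genes had close values on the other 3 arrays and no further probe set above the floor on all 4 arrays to set beside them. CASTOR2, an arginine sensor upstream of mTORC1, was at 79.7, 396, 469 and 447. YARS2, the mitochondrial tyrosyl-tRNA synthetase, was at 458, 2164, 2682 and 2509. TTF2, a factor that releases transcripts from RNA polymerase II, was at 334, 2300.1, 1601 and 1803, although a dimmer probe set gave 85.9, 59.3, 48.8 and 61.4. SASS6, which builds the centriole cartwheel, was at 169, 595, 617 and 550.3. RNF11, a ubiquitin ligase, was at 1899, 5829.9, 6696 and 7458, and ETAA1, an activator of the ATR kinase, at 123, 397, 371 and 576. In each, E-cadherin-high CD133-low cells stood alone and the other subpopulations differed by less than 2-fold, the form taken by 71 of the 104 lower genes. Some CASTOR2 paralogs are near-identical, and its signal may be shared.

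In a further 6 lower genes E-cadherin-low CD133-low cells were the nearest array. NAP1L3, of the nucleosome assembly family, gave 344, 1803, 1021 and 6192. ZDBF2, an imprinted zinc finger gene, gave 148, 1285, 589 and 1941. SUCO, a membrane protein first known from bone formation, gave 933, 4649, 2494 and 4454. RERGL, of the RAS superfamily, gave 24.2, 199.7, 173 and 928. GPNMB, a melanosomal glycoprotein also made in tumours, gave 3088, 9167, 7075 and 13119, and its further probe set 1986, 4489.9, 4027 and 6128. PRKACB, a catalytic subunit of protein kinase A, gave 543, 2241, 1377 and 1974, and its further probe set 69.5, 337, 220.4 and 393. GPNMB and PRKACB were chosen after the values were seen. The 30 furthest below also held TRUB1, RNFT1, WDR17, KRCC1 and the zinc finger genes ZNF605, ZNF836 and ZNF322, with folds of 2.7 (ZNF322) to 3.44 (TRUB1).

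The lower genes outside those 30 and outside the lists had folds of 2.01 (TET3) to 2.6 (EPC2), and the following were chosen after the values were seen. UGDH, which makes UDP-glucuronic acid for glycosaminoglycans, was at 1383, 3157, 2881 and 7423. CDC27, a subunit of the anaphase-promoting complex, was at 1459, 3131, 3920.5 and 3393, but of its other 3 probe sets above the floor not all were lowest in the same cells. SMARCC2, a subunit of the SWI/SNF chromatin remodeller, was at 541, 1098, 1192 and 1177, and its further probe set did not go the same way. GLRX, a glutaredoxin, was at 125, 838, 280.2 and 542, and its further probe set likewise did not. NIP7, a factor of ribosome assembly, was at 2277, 4807, 4684 and 6126, and its further probe set went the same way by less than 2-fold.

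**Figure D2:**
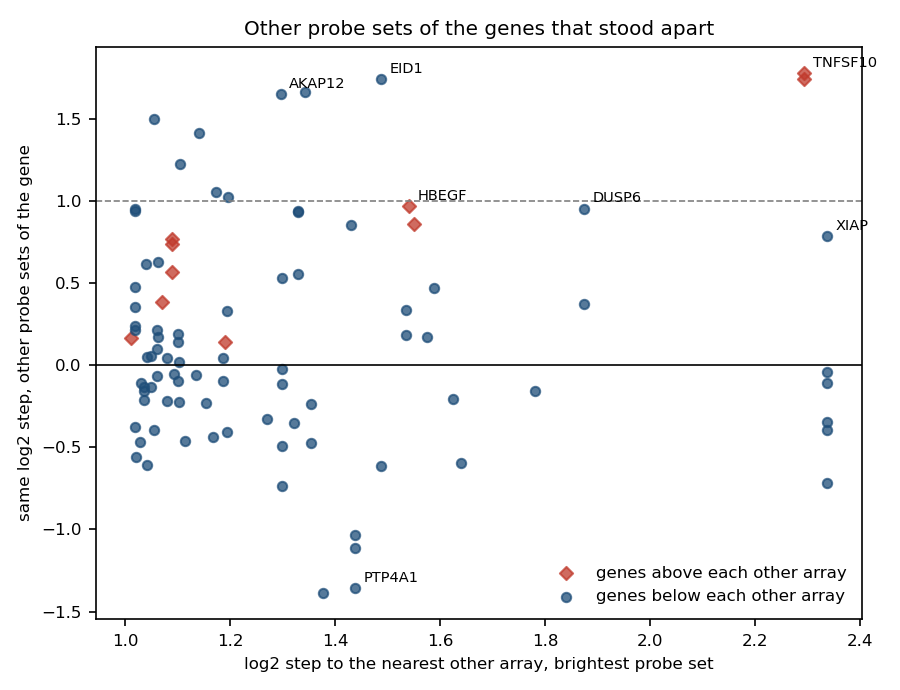
Each point is 1 further probe set of a gene that stood apart, limited to probe sets above the floor on all 4 arrays; the horizontal axis is the log2 step to the nearest array on the brightest probe set and the vertical axis the same step on the further one, positive where it goes the same way. All 10 points of the higher genes lie above 0, while 39 of the 81 points of the lower genes do.

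How far the genes rest on 1 probe set could be followed where others lay above the floor on all 4 arrays. For the higher genes, 8 of 38 had such probe sets, and 10 of 10 went the same way (100%), with 2 (20%), both of TNFSF10, meeting the 2-fold rule. For the lower genes, 46 of 104 had them. Of their 81 probe sets, 39 went the same way (48.1%) and 8 met the rule (9.88%), and the median log2 step was -0.04. All probe sets went the same way for 16 of the 46 genes and none did for 18. The genes in which at least 1 met the rule were AKAP12, EID1, GPNMB, HAND2-AS1, MOCS2, N4BP2, PABIR2 and PRKACB. For the lower genes of the other subpopulations the share going the same way was 92.9% in E-cadherin-high CD133-high, 75% in E-cadherin-low CD133-low and 93.6% in E-cadherin-low CD133-high cells. These shares were not tested against each other. They leave out probe sets under the floor on any array. Among lower genes, an EMP1 and an AKAP12 probe set left out were under the floor in E-cadherin-high CD133-low cells and lowest there. A TTF2 probe set left out was highest in these cells. Among higher genes, an ELF3 probe set left out was highest in these cells, and an OGDH and a CACNB1 probe set left out were not.

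**Figure D3:**
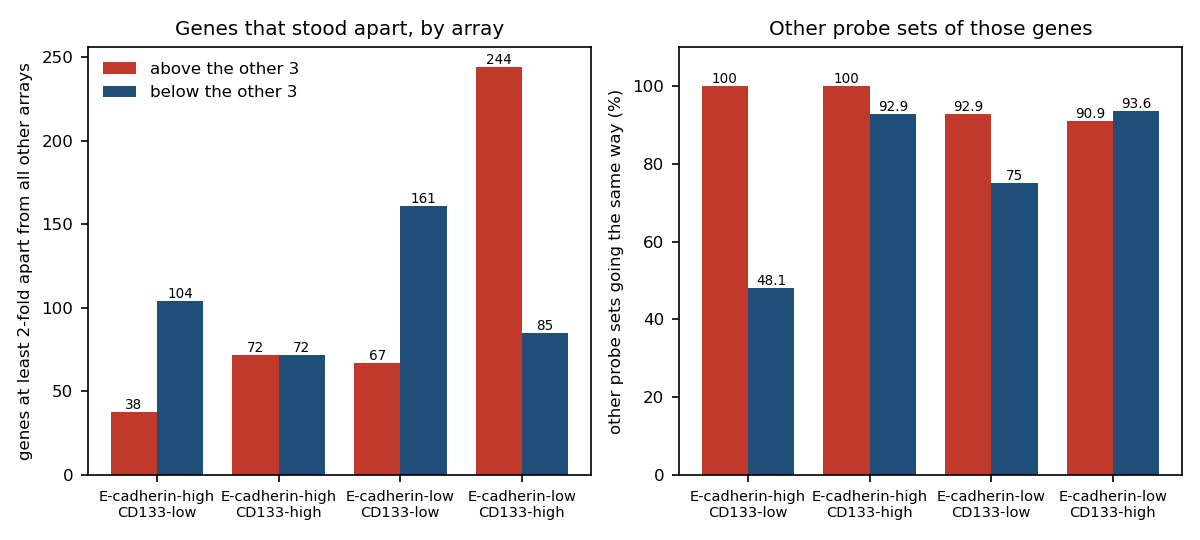
Left, the number of genes at least 2-fold above (red) or below (blue) all other arrays, for each of the 4 subpopulations; right, the percent of further probe sets of those genes, above the floor on all 4 arrays, that go the same way. E-cadherin-high CD133-low cells have the fewest higher genes (38), and 48.1% for their lower genes is the lowest of the 8 percentages.

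The steps were mostly small. The median log2 step to the nearest array was 1.16 for the higher genes (range 1.001 to 2.43) and 1.21 for the lower genes (range 1.01 to 2.84). A log2 step of at least 1.5 was reached by 7 of the 38 and by 22 of the 104. Just inside the threshold upward were SH2D3A (2.02-fold), FSTL3 (2.01-fold) and the dopamine transporter SLC6A3 (2.002-fold). Just outside were PRICKLE3 (1.997-fold), the SRC-family kinase LYN (1.98-fold) and GPR3 (1.98-fold). Downward, CAMK2D (2.03-fold), ZFAND6 (2.02-fold) and the DNA demethylase TET3 (2.01-fold) lay just inside, and STEEP1 (1.99-fold), CLGN (1.98-fold) and KLHL2 (1.98-fold) just outside.

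The nearest array was most often E-cadherin-low CD133-low, the other CD133-low subpopulation, for 15 of the 38 higher and 53 of the 104 lower genes. It was E-cadherin-high CD133-high for 10 and 34, and E-cadherin-low CD133-high for 13 and 17. Of those 13 higher genes, 10 are bounds with every other array at or barely over its floor, so E-cadherin-low CD133-high counts as nearest there through its floor, the highest of the 4, and not through a measured signal. Many more genes missed the rule through 1 array. E-cadherin-low CD133-low cells alone were within 2-fold for 172 genes on the higher side and 362 on the lower side. E-cadherin-high CD133-high cells alone were within 2-fold for 72 and 60, and E-cadherin-low CD133-high cells alone for 28 and 23. EDIL3, a secreted integrin ligand chosen after the values were seen, is an example at 45.3, 7185, 33.9 and 9271, low in both CD133-low subpopulations.

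Against single arrays, E-cadherin-high CD133-low cells were at least 2-fold higher for 456 genes (3.24%) and lower for 710 (5.04%) relative to E-cadherin-high CD133-high cells. Relative to E-cadherin-low CD133-low cells the counts were 404 (2.87%) and 371 (2.63%). Relative to E-cadherin-low CD133-high cells they were 623 (4.42%) and 1113 (7.9%). These comparisons share the E-cadherin-high CD133-low array.

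**Figure D4:**
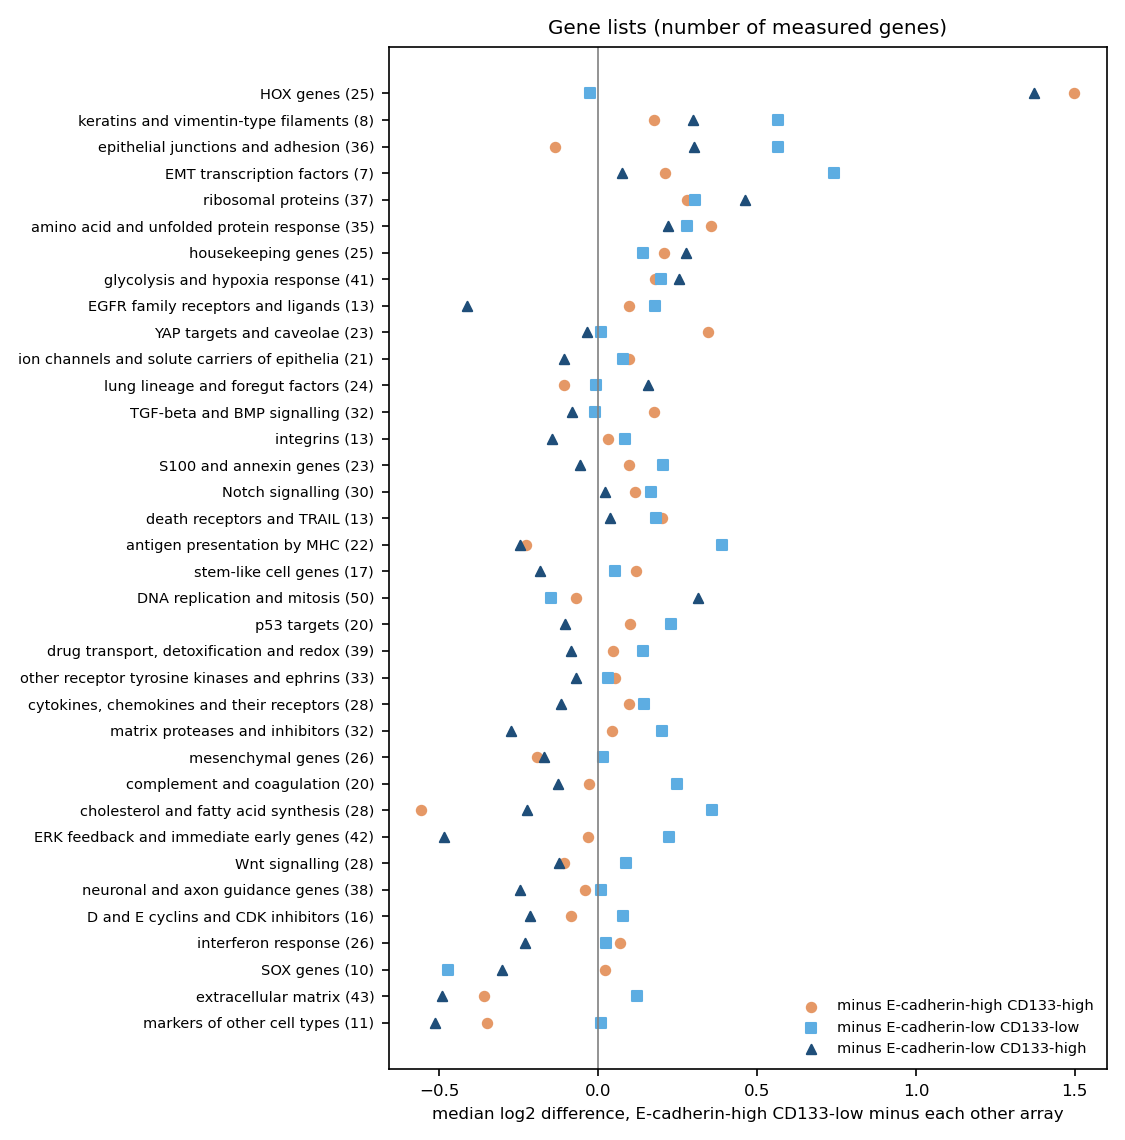
Median log2 difference between E-cadherin-high CD133-low cells and each other array for 36 gene lists, with the number of measured genes in brackets and lists ordered by their median against the mean of the other arrays. The HOX genes lie at 1.499 and 1.37 against the CD133-high arrays and at -0.03 against E-cadherin-low CD133-low cells, and the epithelial junction genes lie below 0 against E-cadherin-high CD133-high cells alone.

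The list medians showed which groups of genes were shared with a neighbour. The HOX genes, which set position along the body axis, had the highest median difference to the mean of the other arrays, 0.89, and none of 25 measured members met the rule. HOXB6, chosen after the values were seen, was at 3319, 102, 2959 and 177, high on both CD133-low arrays. Of the 36 lists, 23 held no gene that met the rule. They included interferon response, p53 targets, integrins, and DNA replication and mitosis, for which the medians against the mean of the other arrays were -0.14, 0.04, 0.11 and 0.04.

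Some members were neighbours on a chromosome. Among 14066 measured genes placed in order, 142 of them members, 4 adjacent pairs of members were found. This count was not set against random placement. DUSP6 and POC1B on chromosome 12, NAP1L3 and FAM133A on chromosome X, and PNMA2 and DPYSL2 on chromosome 8 were lower together. SLAIN1 and EDNRB on chromosome 13 went in opposite directions. POC1B, a centriolar protein, had signals of 604, 1505, 1511 and 3329.7, with the same arrays highest and lowest as for DUSP6.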

How the data were processed

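The authors deposited 1 intensity per probe set for each of 4 arrays on a linear scale, and MAS5 is the tool named per the submitters' processing notes. Its version is not given in the sources used here. Mean intensity after trimming 2% at each end was 500.0 on every array, so the deposited intensities were already scaled, and no detection calls are in the table used. Of 54675 probe sets, 41097 had 1 gene symbol in the platform annotation, 1801 had several and 11777 were unnamed here, and 62 were controls. The IDs of 41043 matched RefSeq (GRCh38.p14).

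Each gene was read from whichever of its probe sets had the largest mean log2 signal. Intensities under an array's 50th percentile of non-control probe sets were raised to it, and 14083 of 19775 genes lay above it on at least 1 array. A gene was counted when its log2 ratio to each of the other 3 arrays was at least 1, or at most -1. With 1 array per group no test is possible, and precision is limited by the number of arrays. Named by rule were the 30 genes furthest apart in each direction and the members of 36 lists that met the rule. The sorted markers, the cell type markers, VIM and the 3 genes on each side of the threshold were also named. Other genes were chosen after the values were seen, whether or not this is said beside them. These include list members that did not meet the rule and members ranked lower. Members and lists were chosen with earlier results of these data known. Alternatives covered scaling, floor, fold, probe set choice and shared probe sets. The code of the rule was run on simulated data. Changes were planted in bright genes only, with little noise and no further probe sets. The run thus checks the code and not the reported genes. Python 3.11.15, numpy 2.4.6 and pandas 2.3.3 were used.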

Additional observations from a re-analysis of the deposited data

How the results depend on the processing

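No paired analysis was possible because each subpopulation has 1 array and the result comes from no test. With quantile normalization the counts were 47 higher and 95 lower genes, sharing 38 and 93 with those reported, and with equal array medians 40 and 107, sharing 34 and 99. They moved most with the floor: 592 and 915 genes without it, 375 and 443 at the 25th percentile, and 18 and 71 at the 65th. A fold of 1.5 gave 234 and 428 genes, and a fold of 3 gave 5 and 18. Averaging all probe sets of a gene gave 17 and 40, of which 16 and 38 were among the reported genes. Leaving out shared probe sets gave 27 and 93, of which 25 and 75 were. Of alternatives chosen after seeing the data, requiring every other probe set above the floor on all arrays to go the same way left 38 and 74. Genes without such a probe set passed unchecked. Only 8 of the 38 higher and 46 of the 104 lower genes had any, and 8 and 16 of these passed. The second brightest probe set gave 18 and 68, of which 4 and 9 were among the reported genes.

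In 11 cases the difference to the mean of the other arrays changed sign. The values that follow are instead log2 steps to the nearest array in the direction reported. Under at least 1 alternative that step also fell below 0 for MMP15 (-0.07), POSTN (-0.10) and FBN2 (-0.009). Their difference to the mean did not change sign. At the 65th percentile floor, IL17D went to -0.095 and CYP2A7, RSPO2, TNFRSF13B, HS3ST1 and CACNB1 to -0.12 on the log2 scale. CYP2A7, RSPO2, TNFRSF13B and CACNB1 were then at the floor on all arrays. PTP4A1 went to -0.32 with the mean over probe sets. Without shared probe sets PTP4A1 and ZNF836 went to -0.10, ARSB to -0.72 and RASSF9 to -1.39, and VIM had no probe set left. The PTP4A1 and ZNF836 probe sets then used were under the floor on all arrays, so their -0.10 comes from the floors alone. Of named genes with a value under all 7 alternatives that keep 2-fold, 5 of 25 higher and 10 of 30 lower genes met the rule in each. The 5 were ELF3, TNFSF10, DSP, DDIT3 and GATA6-AS1.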

Other observations

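Probe sets with no single gene name also met the rule. Of 11721 unnamed probe sets other than controls, 4587 had a signal over the floor somewhere, and 31 were at least 2-fold above and 27 at least 2-fold below each other array. That furthest above had signals of 245 in E-cadherin-high CD133-low cells, 47.4 in E-cadherin-high CD133-high, 58.8 in E-cadherin-low CD133-low and 61.7 in E-cadherin-low CD133-high cells. Of 1801 probe sets with several gene symbols, 1257 lay above the floor, 1 met the rule upward and 12 downward. Of the 14083 measured genes, each read from its brightest probe set, 38 (0.27%) met it upward and 104 (0.738%) downward.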
